A study of Mus musculus with 16 samples.

Results

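The comparison described here asks whether the difference that HIRA loss from hepatocytes made to the liver transcriptome shifted when the liver regenerated. For every gene this was the interaction, the log2 difference between HIRA KO and control after regeneration minus the same difference before it. An interaction above 0 means that HIRA KO stood higher against control after regeneration than before, whichever genotype had moved. The members were 23018 genes of the 55421 gene IDs in the deposited table, those whose counts summed to 10 or more across the 16 libraries, and all 16 samples of the series entered.

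The samples were livers of male mice in 4 groups of 4. The control groups held wildtype mice given AAV8-Tbg-Cre or a CRISPR virus against Rosa26, and the HIRA KO groups held HIRAfl/fl mice given AAV8-Tbg-Cre or wildtype mice given AAV8-Tbg-saCas9 with a guide against HIRA, with 2 libraries of each approach per group. The virus was injected at 6 months of age, and the left lateral and median lobes were resected 4 weeks later and used as the tissue before regeneration. Per the methods, what remained of the liver was taken from the same mice 5 days after resection, so lobe and time changed together in both genotypes. The Tbg promoter acts in hepatocytes, so the other cells of the liver kept HIRA.

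HIRA is a chaperone that loads H3.3, a variant of histone H3, onto DNA independently of replication, which matters in a tissue such as the adult liver, where hepatocytes rarely divide. After partial hepatectomy, the remaining hepatocytes re-enter the cell cycle and restore the mass of the organ, and replication brings canonical H3 into chromatin. A liver that regenerates also has to keep up its oxidative metabolism, protein synthesis and lipid synthesis, and the gene lists described here were built around these functions.

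Total counts per library ran from 15103059 to 21738619. Hira held between 47 and 131 counts per library, and its level, in reads scaled to an equal library size (CPM, mean ± SD, n = 4), was 5.77 ± 0.45 before regeneration and 5.67 ± 0.55 afterwards in control. The HIRA KO groups held 3.54 ± 0.57 and 3.51 ± 0.71 CPM. No HIRA KO library reached a control library at either time, and the interaction for Hira was 0.01 ± 0.24 (log2 ± SE). The 12 hepatocyte markers summed to between 117900 and 179100 CPM over the libraries, which were thus rich in hepatocyte RNA. Alb alone held 78780 to 135400 CPM. On principal components, 4 HIRA KO libraries (2 before and 2 after regeneration) stood apart from the other 12, between -47.4 and -36.2 on the second component, and both pairs carry the column numbers 1 and 2. Each HIRA KO group held 2 libraries of each deletion approach, and no label ties a column to an approach. Whether these 4 libraries are those of 1 approach could therefore not be told, and leaving them out may remove a whole approach from HIRA KO. Fits without them are given beside the lists and the genes that they moved most. Such fits hold fewer HIRA KO libraries, so a threshold that is no longer passed need not mean a smaller interaction. In these bulk samples, fewer cells of a type and less RNA per cell cannot be told apart.

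The edgeR test called 0 of the 23018 genes for the interaction (0%), with a smallest adjusted p of 0.181. This fit did not pair libraries of the same mouse, since no label ties a column to a mouse. A fit with a block on the column numbers is given in the closing section. An unadjusted p under 0.05 was reached by 1568 genes, of which 913 had an interaction above 0 (3.97% of all genes tested) and 655 below 0 (2.85%). DESeq2, run on the same counts, called 67 of the 16224 genes to which it gave an adjusted p (0.413%), 48 above 0 and 19 below 0. Scaling by total counts in place of TMM factors left 1138 genes above 0 and 399 below 0 at an unadjusted p under 0.05, and it moved the median interaction of all genes from -0.02 to 0.04.

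Which genotype moved was read from the separate comparisons of after with before, where alone means that only the change in that genotype was called. These called 2350 genes in control (10.2%), 1390 up and 960 down, on the same libraries as the interaction. In HIRA KO they called 2764 (12%), 1492 up and 1272 down. Of the 48 genes that DESeq2 called above 0, HIRA KO alone moved in 33, control alone in 8, both in the same direction in 1, both in opposite directions in 1 and neither in 5. In HIRA KO 34 of these 48 rose and 1 fell, and in control 0 rose and 10 fell. Among the 19 genes below 0, control alone moved in 9, HIRA KO alone in 8 and both in the same direction in 2, with 11 that rose in control and 8 that fell in HIRA KO. By called changes, most genes above 0 rose in HIRA KO. Those below 0 were divided between a rise in control and a fall in HIRA KO. A change that was not called is not shown to be absent. The median change of the 48 genes was -0.42 in control and 0.66 in HIRA KO, and that of the 19 was 0.62 and -0.41. The median transcript length was 564 bases for the 48 and 4177 for the 19, beside 2004 for all genes tested. Among the 48 were 9 pseudogenes and 7 mitochondrial genes, and a trend of the interaction on transcript length is described below.

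The 24 genes with the smallest interaction p (12 in each direction, among protein-coding and mitochondrial genes with a mean of at least 1 CPM in some group) are described first. They were picked by that p, so their separation is given as a description. Before regeneration HIRA KO and control libraries did not overlap for 8.07% of all genes tested, and after it for 8.1%.

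**Figure D1:**
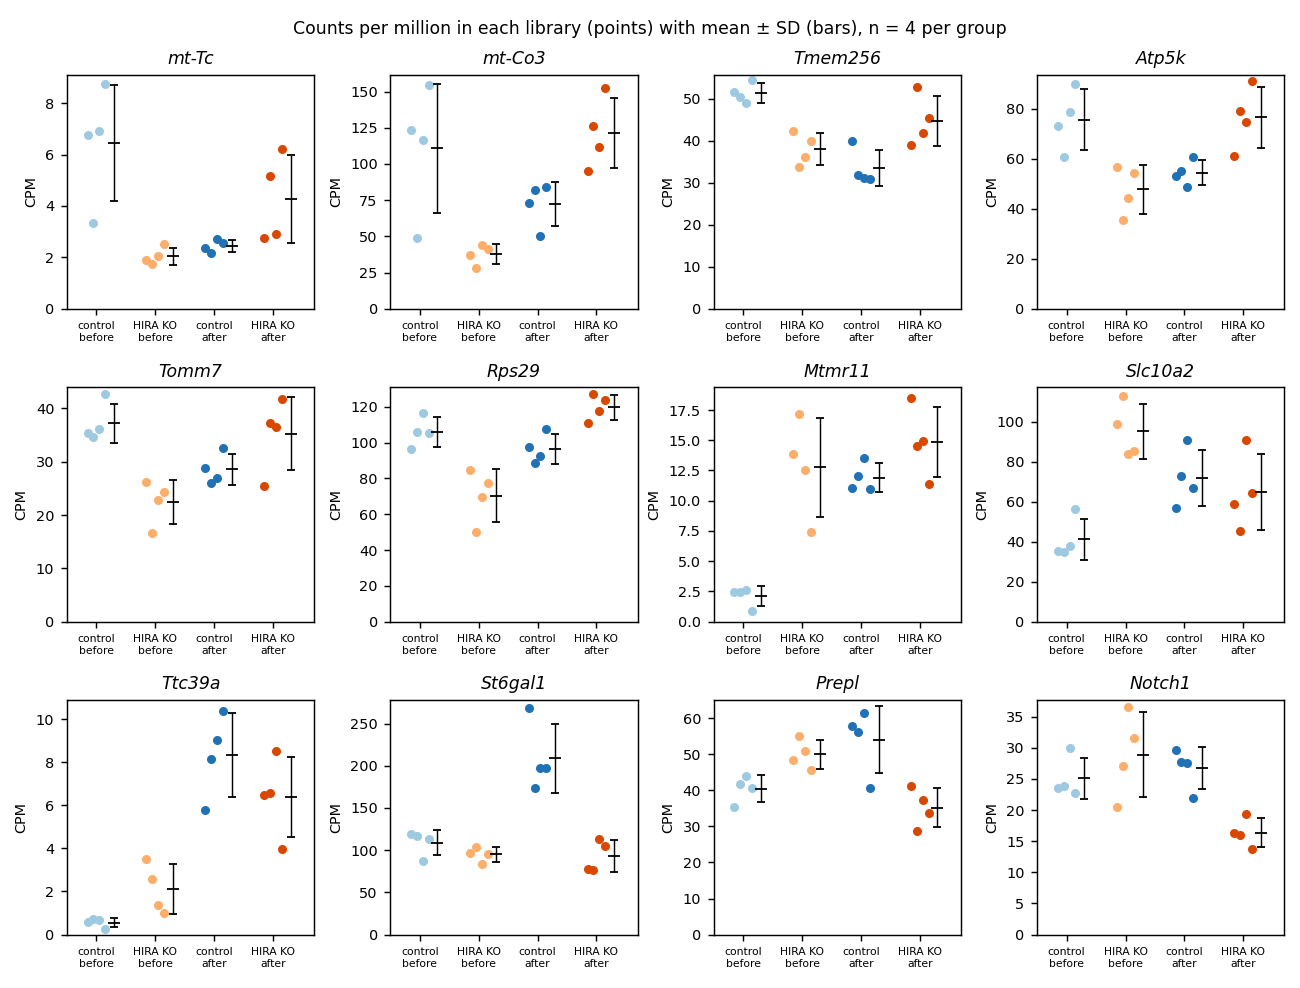
The panels show CPM (y axis, from 0) in each of the 16 libraries as points by group, with mean ± SD as bars, for 6 genes with an interaction above 0 and 6 below 0. For mt-Co3, HIRA KO went from 28.5 to 44.0 CPM before to 95.1 to 152 after regeneration, while for Mtmr11 it was control that went from 0.888 to 2.63 up to 11.0 to 13.5 CPM.

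In the counts, genes of the mitochondrial genome had the smallest p above 0, but the protein-coding ones did not show this in the deposited FPKM values. This genome encodes subunits of the respiratory chain and ATP synthase along with the rRNAs and tRNAs that translate them. The tRNA gene for cysteine, mt-Tc, had 3.33, 6.76, 6.93 and 8.76 CPM in control and 1.73, 1.91, 2.04 and 2.5 CPM in HIRA KO before regeneration. After it, control had 2.18, 2.38, 2.54 and 2.73 CPM and HIRA KO 2.76, 2.89, 5.15 and 6.23 CPM. HIRA KO therefore lay below every control library before and above every control library after regeneration. The interaction was 2.44 ± 0.41, made of a fall by 1.39 in control and a rise of 1.05 in HIRA KO, both called. mt-Tc held between 26 and 148 counts per library.

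mt-Co3, a subunit of cytochrome c oxidase, had 48.6, 116, 124 and 155 CPM in control and 28.5, 36.8, 41.2 and 44.0 CPM in HIRA KO before regeneration. The values after it were 50.5, 72.9, 81.7 and 84.0 CPM in control and 95.1, 112, 126 and 152 CPM in HIRA KO. One control library before regeneration lay close to the HIRA KO libraries, and the other 3 lay well above them. HIRA KO rose by 1.69 ± 0.28 (adjusted p 0.00182) and control changed by -0.62 ± 0.28 (adjusted p 0.188), which gave an interaction of 2.30 ± 0.39.

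mt-Nd3, mt-Co2 and mt-Atp6, which encode subunits of complex I, complex IV and ATP synthase, followed the same course in the counts. The interaction was 2.38 ± 0.41 for mt-Nd3, 2.07 ± 0.42 for mt-Co2 and 2.13 ± 0.44 for mt-Atp6. In each of them HIRA KO rose (by 1.83, 1.59 and 1.46), while the change in control, between -0.67 and -0.48, was not called. The same control library before regeneration was the lowest of its group for all 3 genes, at 4.20, 50.4 and 31.9 CPM. When that library was left out, edgeR called 7 genes, all above 0, of which 6 were mitochondrial (mt-Tc, mt-Nd3, mt-Co2, mt-Co3, mt-Atp6 and mt-Atp8).

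The counts of these genes are uncertain, because annotated nuclear pseudogenes repeat them. A comparison of annotated transcripts showed mt-Co2, mt-Atp6, mt-Co3 and mt-Nd4l to be identical to the pseudogenes Gm28661, Gm10925, Gm28437 and Gm10222 over 681, 678, 783 and 294 bases. mt-Nd3 matched Gm28438 over 345 bases with 1 mismatch, T3C (counted from 1 at the first base of mt-Nd3). The counts of mt-Co3 were between 427 and 2841 per library, against 263689 to 513857 for mt-Co1, whereas in FPKM mt-Co3 had 5201 to 7880 and mt-Co1 10560 to 18260. Gm28437, the copy of mt-Co3, had 5315 to 7923 FPKM. The first bases of mt-Nd3 and Gm28438 are shown because they hold the only base that differs over the 345 bases, and a read that misses this base could be placed at either locus. The differing base is in capitals and the rest in lower case (GENCODE M21, GRCm38, mt-Nd3 at chrM:9459-9519 on the plus strand and Gm28438 at chr1:24613059-24613119 on the minus strand).
mt-Nd3: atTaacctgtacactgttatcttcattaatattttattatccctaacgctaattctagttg
Gm28438: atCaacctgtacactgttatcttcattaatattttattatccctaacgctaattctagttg

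On the log2(FPKM + 1) scale the interaction was 0.25 for mt-Co3, 0.13 for mt-Nd3, 0.09 for mt-Co2 and 0.13 for mt-Atp6, each well under the value from counts. It was -0.42 for mt-Atp8 and -0.58 for mt-Nd4l, with the opposite sign. None of these 6 had an unadjusted p under 0.05 with limma, the smallest being 0.127. Interactions of the size seen in the counted reads were thus not seen in the other deposited quantification.

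**Figure D2:**
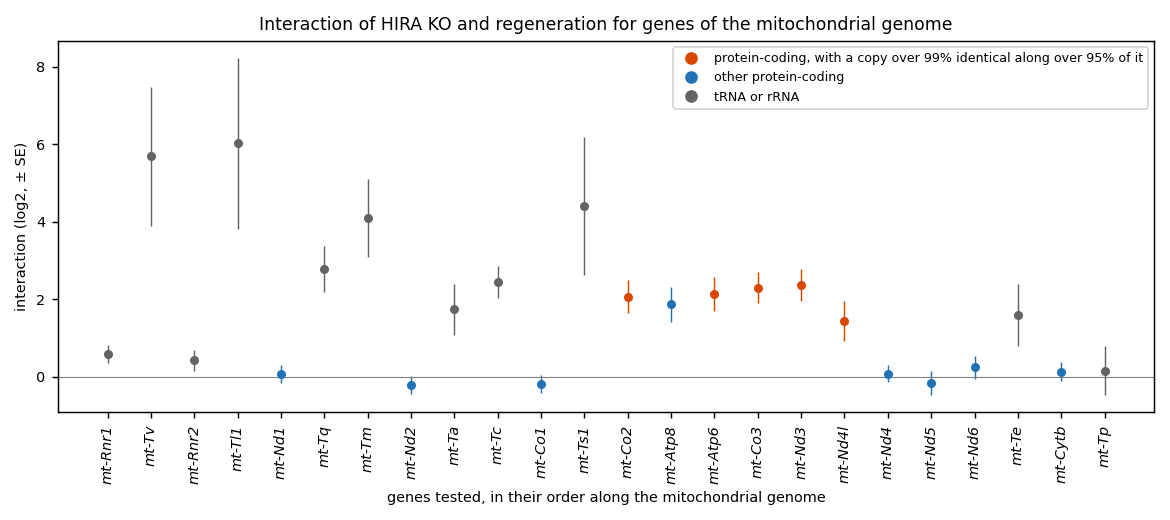
The interaction (log2 ± SE, y axis) is shown for the 24 genes of the mitochondrial genome that were tested, in their order along that genome, with colours for protein-coding genes with a nuclear copy over 99% identical along over 95% of their length, other protein-coding genes, and tRNA or rRNA genes. The values are from counts, in which the block from mt-Co2 to mt-Nd4l lies between 1.44 and 2.38, while mt-Nd1, mt-Nd2, mt-Co1, mt-Nd4, mt-Nd5, mt-Nd6 and mt-Cytb lie between -0.20 and 0.25.

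The other protein-coding mitochondrial genes had small interactions. mt-Nd1, mt-Nd2, mt-Co1, mt-Nd4, mt-Nd5, mt-Nd6 and mt-Cytb had interactions between -0.20 and 0.25, and none had an unadjusted p under 0.05. Their level per length in control before regeneration was between 2587 and 16900 CPM per kilobase, against 25.1 to 185 CPM per kilobase for the 6 protein-coding genes from mt-Co2 to mt-Nd4l. mt-Atp8 lies within that block, rose in HIRA KO by 1.23 and had an interaction of 1.87 ± 0.46. No annotated copy matched it closely, but only annotated transcripts were compared. It starts between mt-Co2 and mt-Atp6, whose copies lie close together at chr1:24614885-24615565 and chr1:24613974-24614651. A copy of mt-Atp8 between them would not have been found. In all, 6 of the 13 protein-coding mitochondrial genes were above 0 at an unadjusted p under 0.05 and 0 below, with a median of 0.25 beside -0.02 for all genes tested. That median was 0.02 with the length trend removed, -0.16 without the 4 libraries that stood apart, with 5 above and 1 below, and -0.06 on FPKM, with 0 of 13 on either side.

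Among 11 mitochondrial RNA genes, 8 were above 0 at an unadjusted p under 0.05 and 0 below, with a median of 2.44, and without the 4 libraries that stood apart 5 of 10 were, with a median of 1.92. The most abundant, mt-Rnr1, mt-Rnr2 and mt-Tp, had smaller interactions of 0.60, 0.43 and 0.16, and only mt-Rnr1 of these had an unadjusted p under 0.05. They held 852, 795 and 1137 CPM per kilobase in control before regeneration, where no other RNA gene was over 97.7. On FPKM, 3 of the RNA genes could be compared, with a median of 0.53. FPKM values are missing for mt-Tc in 11 of the 16 libraries and for mt-Tq in some, so neither could be compared on that scale. mt-Tq, the tRNA gene for glutamine, had an interaction of 2.79 ± 0.60 and rose in HIRA KO by 1.69, but it held as few as 5 counts in a library. mt-Tm and mt-Tv, the tRNA genes for methionine and valine, held at most 12 and 4 counts, so their sizes are not given. The sequence of mt-Tc, which had no annotated nuclear copy, is shown because this gene had the smallest interaction p of all named genes (chrM:5192-5257, minus strand, GENCODE M21).
mt-Tc: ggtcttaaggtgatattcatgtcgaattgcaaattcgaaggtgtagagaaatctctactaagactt

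Nuclear genes for the machinery of the mitochondrion stood next. Atp5k (ENSMUSG00000050856.16, chr5:108433244-108434448 on the minus strand, GRCm38), a small subunit of ATP synthase, had 60.8, 73.1, 78.8 and 90.1 CPM in control and 35.5, 44.2, 54.4 and 56.9 CPM in HIRA KO before regeneration. After regeneration the values were 48.7, 53.3, 55.0 and 60.9 CPM in control and 61.3, 74.9, 79.1 and 91.0 CPM in HIRA KO. The groups did not overlap at either time and had changed places. The interaction was 1.16 ± 0.22 (DESeq2 adjusted p 0.00258), with a rise of 0.68 ± 0.16 in HIRA KO (edgeR adjusted p 0.00954) and a change of -0.47 ± 0.16 in control (adjusted p 0.0616).

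Atp5l, another ATP synthase subunit, and Tomm7, part of the import pore of the outer mitochondrial membrane, had interactions of 1.01 ± 0.22 and 1.03 ± 0.21. Both rose in HIRA KO, by 0.66 and 0.65, with changes of -0.35 and -0.38 in control that were not called. Pet100, a factor in the assembly of cytochrome c oxidase, rose by 0.69 in HIRA KO, from 10.3 ± 1.52 to 16.6 ± 2.31 CPM, and stayed between 12.5 and 16.4 CPM in control. Tmem256, a small membrane protein, differed from these. It fell in control from 51.3 ± 2.36 to 33.4 ± 4.33 CPM (by 0.62, adjusted p 0.00258) and changed by 0.24 ± 0.11 in HIRA KO (adjusted p 0.188). 2310011J03Rik rose in HIRA KO by 0.59 ± 0.10, from 9.59 ± 0.28 to 14.4 ± 0.86 CPM, with 12.5 ± 0.36 and 12.1 ± 0.98 CPM in control.

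Promoters of Atp5k and Atp5l hold the core of the site read by NRF1, a transcription factor of nuclear genes for mitochondrial proteins, and are shown for that reason. The search was for GCATGCGC on both strands in the 250 bases before each RefSeq start (GRCm38.p6), and the 2 matches in Atp5k overlap. Matches are in capitals in the stretches chr5:108434434-108434473 (Atp5k, minus strand) and chr9:44920953-44920992 (Atp5l, minus strand).
Atp5k: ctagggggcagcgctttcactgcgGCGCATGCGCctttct
Atp5l: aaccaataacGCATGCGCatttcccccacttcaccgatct
These letters occurred in 2.32% of 27025 promoters, in 3 of 15 ATP synthase promoters, 3 of 32 complex I promoters, 8 of 69 promoters of mitochondrial ribosomal proteins and 0 of 58 promoters of cytoplasmic ribosomal proteins.

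Over whole complexes the direction was shared. At an unadjusted p under 0.05, 19 of 36 nuclear subunits of complex I were above 0, 4 of 14 of complexes II and III, 5 of 12 of complex IV and 10 of 17 of ATP synthase, with 0 below in each. The medians were 0.37, 0.31, 0.35 and 0.43, beside -0.02 for all genes. Of all genes tested, 3.97% were above 0 and 2.85% below at that threshold. For complex I, the entry of electrons from NADH into the chain, Ndufs6 (interaction 1.02 ± 0.25) and Ndufa12 (0.80 ± 0.19) rose in HIRA KO, by 0.75 and 0.61. Ndufb4 (0.80 ± 0.18) fell in control by 0.42, and for Ndufa13 (0.75 ± 0.18) neither change was called.

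Among the subunits of complexes III and IV with the smallest p, each called change was a fall in control. Uqcrh and Uqcrb of complex III fell in control, by 0.49 and 0.41, with changes of 0.04 and -0.02 in HIRA KO, and Uqcr11 and Uqcr10 were called in neither genotype. In complex IV, Cox7b and Cox7c fell in control, by 0.60 and 0.49, while Cox7a2 and Cox6b1 were called in neither. Atp5e and Atp5mpl, further ATP synthase subunits, were called in neither, with interactions of 0.80 ± 0.19 and 0.55 ± 0.17. Counted over all members, control fell for 11, 3, 6 and 3 genes of complex I, complexes II and III, complex IV and ATP synthase. In the same order, HIRA KO rose for 2, 0, 0 and 2 and fell for 0, 1, 0 and 0. Of all 23018 genes tested, 960 fell in control, and 1492 rose and 1272 fell in HIRA KO.

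Ribosomal protein genes also lay above 0, with most called changes in HIRA KO. Of 79 genes for cytoplasmic ribosomal proteins, 35 were above 0 at an unadjusted p under 0.05 and 0 below, with a median of 0.35. HIRA KO rose for 21 of them and control fell for 1. Rps29, a small protein of the 40S subunit, had 96.3, 105, 106 and 117 CPM in control and 49.9, 69.8, 77.5 and 84.6 CPM in HIRA KO before regeneration. After it the values were 88.7, 92.5, 97.4 and 108 CPM in control and 111, 118, 124 and 127 CPM in HIRA KO. HIRA KO rose by 0.77 ± 0.13 (adjusted p 0.00173) and control changed by -0.14 ± 0.13 (adjusted p 0.611).

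Rplp2, of the ribosomal stalk, also rose in HIRA KO, by 0.70 ± 0.13, whereas Fau fell in control (by 0.42) and Rps27 was called in neither. Mitochondrial ribosomal proteins had a median of 0.19, with 13 of 78 above 0 at an unadjusted p under 0.05 and 0 below. Of the 4 with the smallest p, Mrpl40 rose in HIRA KO by 0.48 ± 0.11, and Mrpl17, Mrpl27 and Mrpl47 were called in neither genotype. At an unadjusted p under 0.05, 2 of the 16 RNA polymerase III subunits were above 0 (12.5%, beside 3.97% of all genes tested). These were Polr1d (0.40 ± 0.17) and Crcp (0.39 ± 0.16), and neither genotype was called for them.

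Most of these transcripts are short, and transcript length moved with the interaction. Among 12251 protein-coding genes with a mean of at least 1 CPM in some group, the median interaction was 0.49 for the 74 with transcripts of up to 500 bases, 0.10 for those of 1000 to 1500 bases and -0.21 for those over 6000 bases. The trend was larger in HIRA KO, whose median change with regeneration ran from 0.33 to -0.20 over the same bins, while in control it ran from -0.14 to -0.01. At an unadjusted p under 0.05, 45.9% of the shortest bin were above 0 and 9.88% of the longest below 0.

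**Figure D3:**
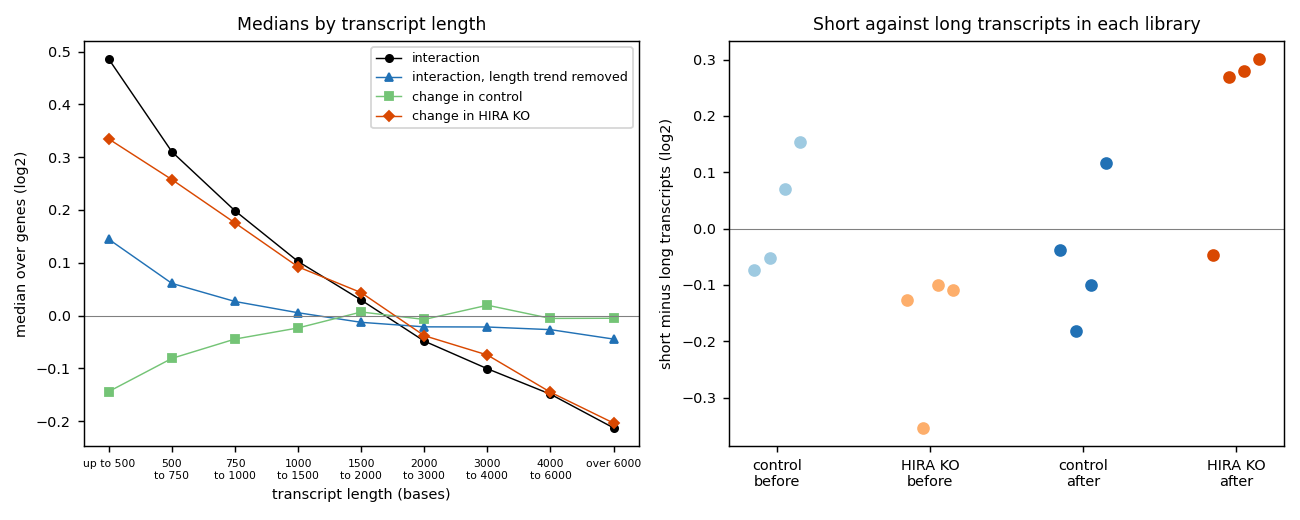
The left panel gives medians over genes (log2, y axis) by transcript length in bases for the interaction, the interaction with the length trend removed, and the change with regeneration in each genotype. The right panel gives, for each library, the median of short (up to 750 bases) minus long (over 4000 bases) transcripts on the log2 scale, relative to the mean of all libraries, and 3 HIRA KO libraries after regeneration lie at 0.27 to 0.30, above all others.

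Library by library, the level of the 410 genes with transcripts of up to 750 bases against the 3030 with transcripts over 4000 bases lay between -0.07 and 0.15 in control and, for HIRA KO, between -0.35 and -0.10 before regeneration. After it, control lay between -0.18 and 0.12, and HIRA KO at -0.05, 0.27, 0.28 and 0.30. With the trend on length removed from each library, edgeR again called 0 genes, and 681 were above 0 (2.96%) and 540 below 0 (2.35%) at an unadjusted p under 0.05. Complex I then had a median of 0.17 with 9 of 36 above 0, ATP synthase 0.20 with 4 of 17, complexes II and III 0.16 with 0 of 14, complex IV 0.10 with 2 of 12, and cytoplasmic ribosomal proteins 0.15 with 17 of 79. Among the genes named here, mt-Nd4l, Polr1d, Crcp, Uqcrh, Uqcr11, Uqcr10, Uqcrb, Cox6b1, Cox7c, Mrpl27, Atp5mpl, Psme2, Psmb8, Lss, Acaca, Acacb and Hbb-bt no longer had an unadjusted p under 0.05. mt-Tc (2.00), mt-Co3 (2.10), Atp5k (0.74), Tomm7 (0.90) and Pet100 (0.64) stayed above 0 with an unadjusted p under 0.05. Whether length itself has a part in these results was not tested beyond this fit.

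On FPKM, for the 17700 genes with a value in every library, 944 were above 0 (5.33%) and 527 below 0 (2.98%) at an unadjusted p under 0.05 with limma. Complex I then had 11 of 36 above 0 with a median of 0.23, complexes II and III 1 of 14 (0.20), complex IV 5 of 11 (0.24), ATP synthase 6 of 17 (0.16), cytoplasmic ribosomal proteins 14 of 78 (0.18) and mitochondrial ribosomal proteins 7 of 78 (0.11), with 0 below in each. Atp5k (0.81), Tomm7 (0.90), Pet100 (0.83) and Tmem256 (0.58) moved by less than 1.5 times from counts, whereas Atp5l came to 0.47, Rps29 to 0.54, Rplp2 to 0.36, Rps27 to 0.30, Atp5mpl to 0.11, Uqcrb to 0.18 and Cox7c to -0.05, while Cox7b came to 1.64.

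Without the 4 HIRA KO libraries that stood apart, 1031 of 21500 genes were above 0 (4.8%) and 563 below 0 (2.62%) at an unadjusted p under 0.05. Complex I had 22 of 36 above 0 in that fit, ATP synthase 11 of 17 and cytoplasmic ribosomal proteins 45 of 79, more in each of these than with all 16 libraries, while the mitochondrial genome lists had fewer.

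**Figure D4:**
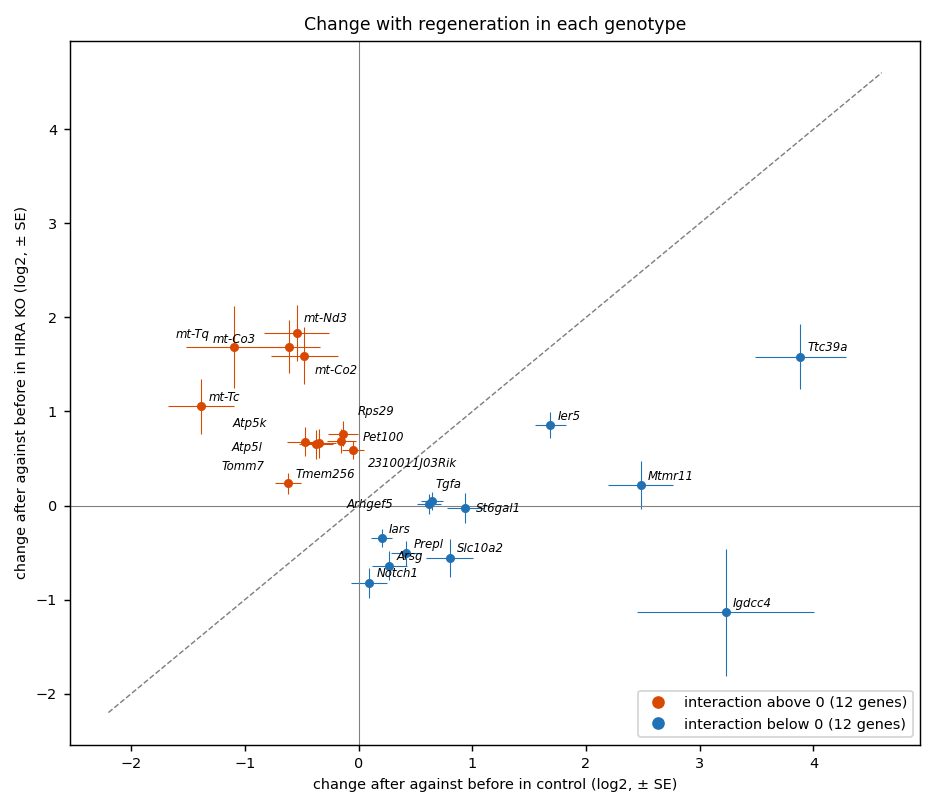
For the 24 genes with the smallest interaction p, the change after against before is plotted in control (x axis, log2 ± SE) and in HIRA KO (y axis, log2 ± SE), with the dashed line where both are equal. The genes above the line cluster at a change in control between -1.39 and -0.05 and a change in HIRA KO between 0.24 and 1.83, while those below it spread from Notch1, where HIRA KO fell, to Ttc39a, where control rose by 3.88.

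Below 0, 6 of the 12 genes rose in control with no called change in HIRA KO. Mtmr11 (ENSMUSG00000045934.15, chr3:96162004-96171718 on the plus strand, GRCm38), of the myotubularin family of phosphatase-like proteins, had 0.888, 2.47, 2.49 and 2.63 CPM in control and 7.39, 12.6, 13.9 and 17.2 CPM in HIRA KO before regeneration. After it the values were 11.0, 11.1, 12.0 and 13.5 CPM in control and 11.4, 14.5, 14.9 and 18.5 CPM in HIRA KO. Control after regeneration thus lay within the range that HIRA KO had before it. Control rose by 2.48 ± 0.28 (adjusted p 0.000133), HIRA KO changed by 0.22 ± 0.26 (adjusted p 0.635), and the interaction was -2.26 ± 0.38 (DESeq2 adjusted p 7.77e-05).

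Slc10a2, the sodium-dependent bile acid transporter of ileum and bile ducts, had 35.1, 35.5, 38.1 and 56.6 CPM in control and 83.8, 85.4, 99.2 and 113 CPM in HIRA KO before regeneration. The groups overlapped after it, at 57.1 to 90.8 CPM in control and 45.6 to 91.2 CPM in HIRA KO. Control rose by 0.80 ± 0.20 (adjusted p 0.0182) and HIRA KO changed by -0.55 ± 0.20 (adjusted p 0.0857). Mtmr11 and Slc10a2 were also among the 9 genes that edgeR called between HIRA KO and control before regeneration (0.0391%).

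St6gal1, Tgfa and Arhgef5 had a different course, with no called difference before regeneration and a gap after it. St6gal1 (ENSMUSG00000022885.16, chr16:23224740-23360350 on the plus strand), which adds sialic acid to glycoproteins, had 87.4 to 119 CPM in control and 83.5 to 104 CPM in HIRA KO before regeneration. After it, control had 174, 197, 198 and 268 CPM and HIRA KO 76.7, 77.8, 105 and 114 CPM. Control rose by 0.94 ± 0.16 (adjusted p 0.00143), while HIRA KO changed by -0.03 ± 0.16, and HIRA KO stood 1.17 ± 0.16 below control after regeneration (adjusted p 0.00455).

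Tgfa, a ligand of the EGF receptor and a mitogen of hepatocytes, went from 22.6 to 24.9 CPM before regeneration to 33.5 to 38.4 CPM after it in control. In HIRA KO it had 21.2 to 27.2 CPM before and 22.9 to 27.8 CPM after. The rise in control was 0.64 ± 0.10 (adjusted p 0.000625) and the change in HIRA KO 0.05 ± 0.10. Arhgef5, a guanine nucleotide exchange factor of small GTPases, rose in control by 0.62 ± 0.11, from 33.4 ± 1.90 to 51.4 ± 1.05 CPM, and had 34.4 ± 2.92 and 34.8 ± 5.44 CPM in HIRA KO.

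Ttc39a and Ier5, an immediate early gene, rose in both genotypes, and more in control. Ttc39a went from 0.555 ± 0.217 to 8.33 ± 1.94 CPM in control (a rise of 3.88) and from 2.11 ± 1.15 to 6.38 ± 1.88 CPM in HIRA KO (a rise of 1.58), on 4 to 216 counts per library. Ttc39aos1, which lies next to Ttc39a on the other strand and was chosen through DESeq2, rose in control by 3.46, from 0.185 ± 0.156 to 2.15 ± 0.52 CPM, and changed by 0.89 in HIRA KO, on 1 to 46 counts per library. The annotated spans of these neighbours do not overlap (Ttc39aos1 at chr4:109403794-109406155 and Ttc39a at chr4:109406623-109444745). The strand setting of the counting is not given in the sources used here, so whether a read in either span came from the strand of that gene is not known. Ier5 rose by 1.69 in control and 0.86 in HIRA KO. Igdcc4, a receptor of the immunoglobulin superfamily, rose in control from 0.174 ± 0.088 to 1.73 ± 0.88 CPM, and a single HIRA KO library before regeneration held 3.49 CPM where the other 3 held 0.40 to 0.44, with 2 to 66 counts per library.

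The remaining 4 genes were ones that fell in HIRA KO. Prepl, a serine hydrolase, had 35.3, 40.8, 41.7 and 44.0 CPM in control and 45.7, 48.3, 51.0 and 55.1 CPM in HIRA KO before regeneration. After it the order turned, with 40.7, 56.3, 58.0 and 61.4 CPM in control and 28.7, 33.6, 37.3 and 41.2 CPM in HIRA KO. HIRA KO fell by 0.51 on the log2 scale (adjusted p 0.0196) and control changed by 0.42 ± 0.13 (adjusted p 0.0514).

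Notch1 (ENSMUSG00000026923.15, chr2:26457903-26516663 on the minus strand), a receptor of the Notch family, had 22.7 to 30.1 CPM in control and 20.5 to 36.5 CPM in HIRA KO before regeneration. After it, control had 22, 27.6, 27.7 and 29.7 CPM and HIRA KO 13.7, 15.9, 16.3 and 19.4 CPM. HIRA KO fell by 0.82 on the log2 scale (adjusted p 0.00325), and control changed by 0.09 ± 0.16. Arsg, a lysosomal sulfatase, and Iars, the isoleucyl-tRNA synthetase, fell in HIRA KO by 0.64 and 0.35, with changes of 0.27 and 0.20 in control that were not called. DESeq2 gave adjusted p values under 0.05 for all of these 12 genes except Notch1 (0.0617).

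These 12 kept their sign in both further fits, with smaller sizes for some. Without the 4 libraries that stood apart, the interaction was -0.40 for Arsg, -0.37 for Arhgef5, -0.63 for St6gal1, -1.45 for Ttc39a and -2.87 for Igdcc4. On the log2(FPKM + 1) scale, which understates the change of low genes, it was -1.32 for Mtmr11, -1.07 for Ttc39a, -0.36 for Igdcc4, -0.44 for Prepl and -0.56 for Notch1, and the remaining 7 moved by less than 1.5 times.

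The genes called between HIRA KO and control before regeneration were followed through it. Apart from Mtmr11 and Slc10a2, the interaction of the remaining 7 lay between -1.21 and 0.48. Cdhr2, a protocadherin of the brush border, had 0.213 ± 0.122 CPM in control and 2.76 ± 1.06 CPM in HIRA KO before regeneration and 0.809 ± 0.394 and 8.92 ± 4.74 CPM after it. It rose in both genotypes, by 1.86 and 1.69, on 1 to 336 counts per library, and HIRA KO stayed 3.63 ± 0.51 above control before and 3.46 ± 0.43 after regeneration. Kctd17 rose in both as well, by 1.12 and 0.78.

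Ifi27l2b, an interferon-induced gene, rose from 6.96 ± 2.05 to 68.6 ± 22.4 CPM in control and from 28.0 ± 10.8 to 120 ± 22.1 CPM in HIRA KO, with an interaction of -1.21 ± 0.40 (-0.89 without the 4 libraries that stood apart, past no unadjusted threshold). Polr3gl, a paralog of a subunit of RNA polymerase III, had 9.52 ± 1.19 and 8.83 ± 1.08 CPM in control and 3.68 ± 1.07 and 4.76 ± 1.37 CPM in HIRA KO before and after regeneration, with no called change in either genotype. Atp8b5, Vmn2r20 and Gm17430 stayed above control at both times without overlap, and no change with regeneration was called for them. The interval of the interaction, from its SE, is wide for Vmn2r20 (-0.84 ± 0.63) and Gm17430 (-0.82 ± 0.67), which held as few as 3 and 1 counts in a library. Of these 7, Gm17430 came to 0.23 on FPKM, with the opposite sign.

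H3f3a and H3f3b, the genes of H3.3, had interactions of 0.07 ± 0.20 and 0.28 ± 0.22. H3f3a stood above control in HIRA KO without overlap at both times, at 94.1 ± 12.9 against 58.1 ± 4.63 CPM before and 100.5 ± 22.7 against 59.2 ± 2.51 CPM after regeneration. Hnf4a, the main transcription factor of hepatocyte identity, had an interaction of 0.01 ± 0.27, and Serpina6, which encodes the carrier of glucocorticoids in plasma, one of -0.17 ± 0.50. Slc10a1, the bile acid importer of hepatocytes, had an interaction of 0.07 ± 1.09. Its HIRA KO libraries held 45.1, 110, 574 and 672 CPM before and 38.8, 54.1, 248 and 288 CPM after regeneration, with the low pair in the libraries that stood apart on principal components. Alb, the most abundant plasma protein gene, had an interaction of -0.37 ± 0.26.

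**Figure D5:**
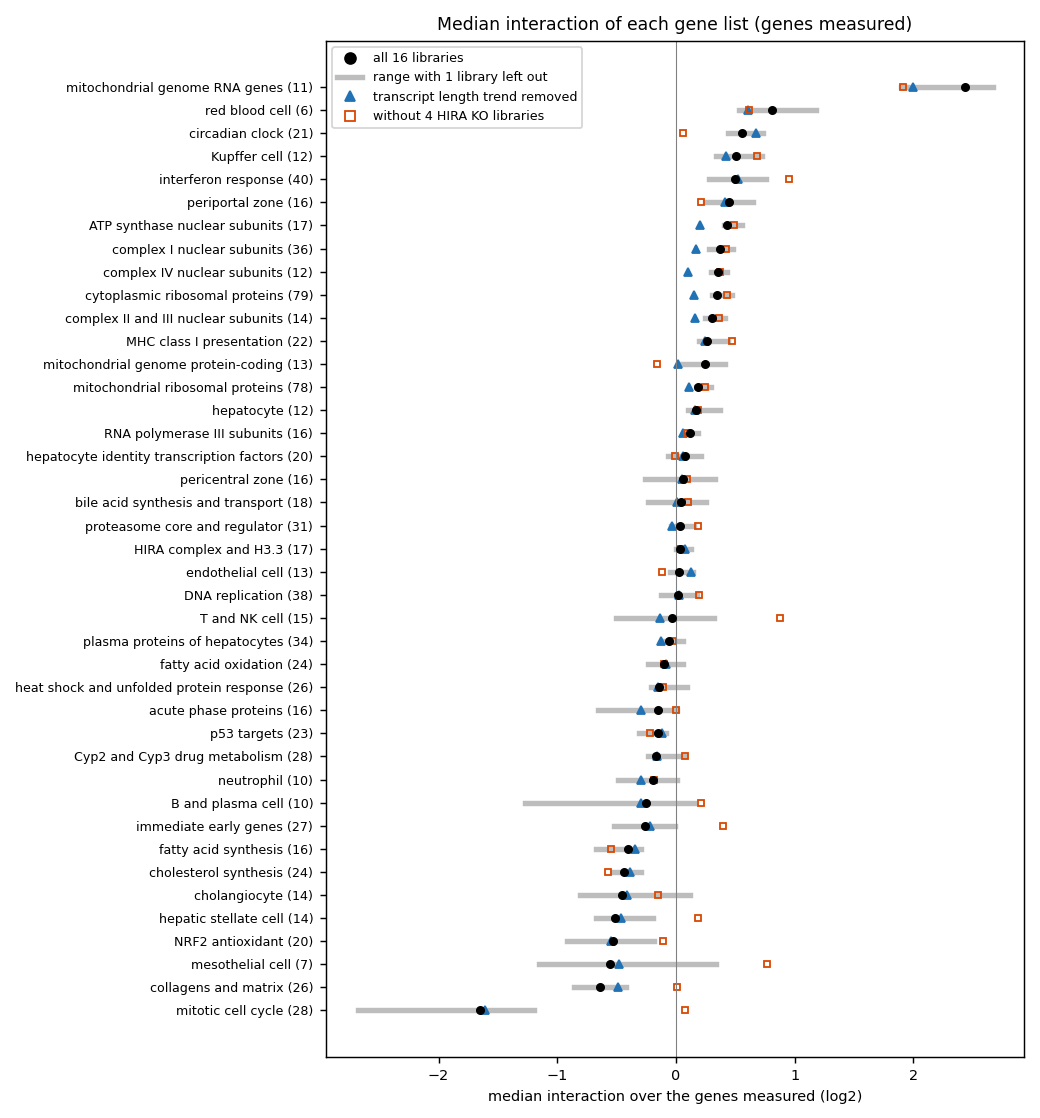
Each of the 41 gene lists is a row (genes measured in parentheses), and the x axis is its median interaction (log2) with all 16 libraries, over the fits with 1 library left out, with the transcript length trend removed and without 4 HIRA KO libraries. The mitochondrial RNA genes lie highest at 2.44, and the mitotic list, lowest at -1.65, comes to 0.08 without the 4 libraries.

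Genes of lipid synthesis lay below 0. Cholesterol synthesis had a median of -0.44, with 6 of 24 genes below 0 at an unadjusted p under 0.05 and 0 above. It fell with regeneration in both genotypes, with 6 genes that fell and 1 that rose in control, and 15 that fell and 0 that rose in HIRA KO. Insig1, the sterol sensor that holds SREBP in the endoplasmic reticulum, had 355, 381, 438 and 602 CPM in control and 498, 574, 633 and 835 CPM in HIRA KO before regeneration. After it the values were 295, 337, 408 and 483 CPM in control and 196, 221, 278 and 374 CPM in HIRA KO, and HIRA KO fell by 1.25 (adjusted p 0.00225) where control changed by -0.22 ± 0.22.

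Lss, the lanosterol synthase, fell in HIRA KO by 0.96, with a change of -0.34 ± 0.18 in control that was not called, and its interaction of -0.62 came to -0.27 on FPKM. Fatty acid synthesis had a median of -0.41, with 3 of 16 below 0 and 0 above at an unadjusted p under 0.05. On FPKM the medians of both lists were -0.46, with 5 of 23 and 6 of 16 below 0. Acly, which makes cytosolic acetyl-CoA, and Acacb, an acetyl-CoA carboxylase, fell in HIRA KO by 1.38 and 1.63, with changes of -0.51 and -0.38 in control that were not called, and Acaca was called in neither. Without the 4 libraries that stood apart, 9 cholesterol genes and 4 fatty acid genes were below 0 at an unadjusted p under 0.05, though Insig1 (-0.74), Acly (-0.73) and Acacb (-1.22) no longer were. The interactions of Insig1, Acly and Acacb with all 16 libraries were -1.03, -0.88 and -1.25. The sterol response element, searched as TCACCCCAC on both strands, was in 0.466% of all promoters, 1 of 16 promoters of cholesterol synthesis genes and 0 of 13 of fatty acid synthesis genes.

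Most antigen presentation and interferon-induced genes lay above 0, by more without the libraries that stood apart and by less on FPKM. At an unadjusted p under 0.05, 3 of 22 MHC class I presentation genes were above 0 (13.6%, beside 3.97% of all genes tested) and 0 below. The median of this list was 0.26. Without those 4 libraries it was 0.47 with 13 above 0, and on FPKM 0.19 with 1 above 0. Regeneration raised 3 of the 22 genes in control and 12 in HIRA KO, beside 1390 and 1492 of all 23018 genes tested. Psmb8, a subunit of the immunoproteasome, had 25.0, 37.5, 37.8 and 42.7 CPM in control and 19.2, 19.4, 20.5 and 21.1 CPM in HIRA KO before regeneration. After it the values were 48.0, 51.4, 60.4 and 61.8 CPM in control and 28.4, 39.0, 65.4 and 66.2 CPM in HIRA KO, where the 2 low libraries were those that stood apart. Psmb8, Psmb10 and Psme2, each of the immunoproteasome or its activator, rose in HIRA KO by 1.31, 0.97 and 0.70 and were not called in control. The interaction of Psmb8 was 0.68 with all libraries, 1.08 without the 4 and 0.40 on FPKM.

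The interferon list had a median of 0.50, with 2 of 40 genes above 0 (5%) and 1 below (2.5%) at an unadjusted p under 0.05. Over all genes tested these shares were 3.97% and 2.85%. Without the 4 libraries the median was 0.95, and 28 genes were above 0 and 0 below at that threshold. On FPKM the median was 0.23, with 0 above and 1 below. Both genotypes raised these genes, 17 in control and 29 in HIRA KO. The list score, the mean of log2(CPM + 1), was 4.02 to 4.67 in control and, for HIRA KO, 3.63 to 4.06 before regeneration, and 5.12 to 5.75 in control and 4.38 to 5.90 in HIRA KO after it, with HIRA KO both lowest and highest. All 12 Kupffer cell markers had an interaction above 0 (median 0.51, 1 at an unadjusted p under 0.05), and their summed level was 252 to 633 CPM in control and 363 to 444 CPM in HIRA KO before and 917 to 1157 and 1010 to 1363 CPM after regeneration. Their part in the interferon and MHC results was not tested.

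Genes of the circadian clock passed an unadjusted threshold with all libraries and not without those that stood apart. At an unadjusted p under 0.05, 7 of 21 genes were above 0 and 0 below, with a median of 0.56, but without those 4 libraries the count was 0 and the median 0.06, and on FPKM it was 1 above and 1 below with a median of 0.30. Control fell for 11 of the 21 genes and HIRA KO for 2. Dbp, an output gene of the clock, had 7.10, 7.34, 34.8 and 46.7 CPM in control and 26.5, 42.0, 49.2 and 77.8 CPM in HIRA KO before regeneration. After it control held 0.872, 3.07, 3.17 and 3.38 CPM and HIRA KO 5.64, 26.5, 37.9 and 87.0 CPM. Control fell by 3.19 (adjusted p 0.0365), and HIRA KO changed by -0.32 ± 0.75.

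Ciart, a repressor of the clock, stood above control in HIRA KO at both times, at 6.80 to 13.5 against 0.973 to 4.38 CPM before and 3.28 to 34.3 against 0.344 to 0.689 CPM after regeneration. Neither change with regeneration was called, and the interaction was 2.89 ± 0.99, on 6 to 772 counts per library. Bhlhe40 fell in both genotypes (by 2.12 in control and 0.92 in HIRA KO) and Hlf in control alone (by 0.92). Of these, the interaction without the 4 libraries was 1.96 for Dbp, 1.17 for Ciart, 0.73 for Bhlhe40 and 0.16 for Hlf, none with an unadjusted p under 0.05. On FPKM it was 0.90 for Ciart and 0.39 for Hlf. Per3, Arntl and Npas2 are given after their values were seen. A single HIRA KO library after regeneration had the highest Dbp (87.0 CPM) and Per3 (40.1 CPM) of its group and the lowest Arntl (2.44 CPM) and Npas2 (0.0444 CPM), and it was one of those that stood apart. Arntl and Npas2 are known to peak at the opposite time of day to Dbp and Per3. Surgery was done in the morning per the methods, and the hour at which the liver after regeneration was taken is not given in the sources used here, so its part was not tested.

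The promoters of Ciart and Per3 are shown for the elements through which clock factors act, with matches in capitals (RefSeq, GRCm38.p6, Ciart at chr3:95882329-95882368 and Per3 at chr4:151044855-151044894, both on the minus strand). Ciart holds the E-box CACGTG, bound by the pair of BMAL1 and CLOCK, and Per3 the D-box TTATGTAA, bound by DBP, HLF and TEF.
Ciart: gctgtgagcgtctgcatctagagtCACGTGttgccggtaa
Per3: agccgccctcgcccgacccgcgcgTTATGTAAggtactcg
The E-box was in 5 of 17 clock promoters and 6.05% of 27025 promoters, and the D-box in 1 of 17 and 0.862%.

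Antioxidant genes under NRF2 had a median of -0.53. At an unadjusted p under 0.05, 2 of 20 were below 0 (10%, beside 2.85% of all genes tested) and 0 above. Gsta1, a glutathione transferase, rose in control from 1.16 ± 0.68 to 34.9 ± 36.4 CPM and went from 11.3 ± 6.30 to 43.3 ± 19.99 CPM in HIRA KO, a change of 1.93 ± 0.72 that was not called. Gpx2, a glutathione peroxidase, rose in control from 0.0550 ± 0.0042 to 6.86 ± 6.01 CPM, with 1.07 ± 1.40 and 4.10 ± 4.12 CPM in HIRA KO and 1 to 298 counts per library. Without the 4 libraries the median was -0.11, with 0 below 0 at an unadjusted p under 0.05, and the interaction came to -1.60 for Gsta1 and -0.65 for Gpx2. Ms4a1, a B cell marker with 3 to 24 counts per library, rose in control by 1.95 and had an interaction of -2.05 ± 0.59 (-0.26 on FPKM), and was the 1 of 10 B and plasma cell markers below 0 at an unadjusted p under 0.05, with 7 of 10 below 0 by sign. Hbb-bt, a beta globin gene, was the 1 of 6 red blood cell markers above 0 at an unadjusted p under 0.05 (1.62 ± 0.66, and 1.16 without the 4 libraries, past no threshold), with all 6 above 0 by sign, and neither genotype was called for it.

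Mitotic genes had the lowest median, -1.65, with 1 of 28 below 0 at an unadjusted p under 0.05. Regeneration raised 28 of them in control and 27 in HIRA KO. Mki67, the marker of cycling cells, had 0.796, 1.01, 1.29 and 2.23 CPM in control and 1.56, 1.82, 4.47 and 6.14 CPM in HIRA KO before, and 11.8, 37.8, 71.0 and 77.5 CPM in control and 10.5, 24.4, 27.0 and 72.2 CPM in HIRA KO after regeneration. The groups overlapped at both times, and the interaction was -1.98 ± 1.03. Without the 4 libraries the mitotic median was 0.08. DNA replication genes had a median of 0.01 with all libraries, with 1 of 38 above and 1 below 0 at an unadjusted p under 0.05, and of 0.20 with 2 above and 0 below without those 4.

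Several functions of the liver gave at most 2 genes in a direction past an unadjusted p of 0.05. Over all genes tested the share was 3.97% above 0 and 2.85% below. A single gene made up 2.94% of the 34 plasma protein genes and 6.25% of the 16 periportal genes. Among 20 transcription factors of hepatocyte identity and 24 genes of fatty acid oxidation, 0 were past an unadjusted p of 0.05 in either direction, with medians of 0.08 and -0.10. Plasma proteins of hepatocytes had 1 of 34 on each side (median -0.06), bile acid synthesis and transport 0 above and 1 of 18 below (0.04), and drug metabolizing Cyp2 and Cyp3 genes 0 of 28 (-0.17). Periportal genes had 1 of 16 above 0 with a median of 0.44 (0.21 without the 4 libraries), and pericentral genes 0 of 16 with a median of 0.06. The proteasome had 0 of 31, p53 targets 1 of 23 below, immediate early genes 2 of 27 below, acute phase proteins 1 of 16 below, the heat shock and unfolded protein response 1 of 26 below, and the HIRA complex and H3.3 list 1 of 17 above. These counts do not show that the genes kept the same HIRA KO effect, since a shift smaller than about 2 standard errors would not pass.

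Markers of cell types gave at most 1 gene per list past an unadjusted p of 0.05. These were 1 of 12 Kupffer cell markers (8.33%, beside 3.97% of all genes tested above 0), Ms4a1 and Hbb-bt. There were 0 of 14 cholangiocyte, 14 hepatic stellate, 13 endothelial, 15 T and NK, 10 neutrophil, 7 mesothelial and 12 hepatocyte markers. The medians were -0.46 for cholangiocyte, -0.52 for stellate and -0.56 for mesothelial markers, and -0.64 for 26 collagen and matrix genes, of which 0 were past an unadjusted p of 0.05. Without the 4 libraries that stood apart these became -0.15, 0.19, 0.77 and 0.01. Summed cholangiocyte markers held 80.6 to 112 CPM in control and 87.0 to 214 CPM in HIRA KO before, and 109 to 149 and 110 to 205 CPM after regeneration. B and plasma cell markers reached 477.5 CPM in 1 HIRA KO library before and 646 CPM in 1 after regeneration, where control held at most 51.5 CPM. Among listed markers, only Ahsp was not measured.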

How the data were processed

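RNA from 16 liver samples in 4 groups of 4 was sequenced after polyA selection. Per the labels and methods, the authors aligned reads to mm10 with STAR. The methods name HOMER for counting and the submitters' processing notes name HTSeq and Cufflinks, and how reads with several placements or of either strand were treated is not given in the sources used here. The deposited counts are whole reads per gene and were the basis of every test, and the deposited FPKM values, used as log2(FPKM + 1) in limma, served only as an alternative, for the 17700 genes with an FPKM in every library. A missing FPKM was not read as 0, since 1326 of them had 10 or more counts. Columns name a group but neither mouse nor deletion approach, so neither could be a term in the fit. Per the study, the 4 libraries of a group came from 4 mice, 2 of each approach. Its methods take the tissue before and after regeneration from the same mice. The main fit could not pair them and treated the 16 libraries as independent.

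Genes with at least 10 counts in total were tested with robust quasi-likelihood fits in edgeR 4.0.16 (R 4.3.3) on 4 group means with TMM factors, and p-values were Benjamini-Hochberg adjusted over all 23018 genes at 0.05. All tests were two-sided. DESeq2 1.42.0, limma 3.58.1, other filters and scalings, and fits with a library left out were alternatives. The trend on transcript length and a block on the column numbers were added after seeing the data. Which genotype moved was set by the adjusted p of after against before in each. IDs were matched, version included, to GENCODE M21, for 22577 of the 23018 genes. The members and lists were chosen with earlier results of these data known. Named were the 12 genes with the smallest p in each direction, the 9 called before regeneration, the first 5 by DESeq2 in each direction, a few per list and the mitochondrial genes, and 2 genes that the rule for lists would name are not reported here. Replicates were checked in 24 pairs, whose counts differed by more than sampling noise in each (chi-square per degree of freedom 12.4 to 134). The steps were tested on simulated counts. Depth per library sets the counting error of low genes, and counts are given beside those named.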

Additional observations from a re-analysis of the deposited data

Results flagged for a closer look

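In 380 groups of 4 libraries (95 named genes), 28 held 1 library farther from the other 3 than Dixon's 95% limit allows, and chance alone gives about 1 in 20 groups. All values are CPM of the library that stood off. In control before regeneration these were Mtmr11 (0.888), Slc10a2 (56.6), Ier5 (6.01), Notch1 (30.1), Polr3gl (11.3), Uqcrh (137), Atp5mpl (57.8), Crcp (12.9), mt-Nd1 (6265) and Myh1 (0.0592). In control after regeneration they were Tmem256 (39.9), Arhgef5 (49.8), Serpina6 (261), mt-Tv (0.0545), Ndufs6 (72.9), Uqcr10 (72.3), Uqcrb (106), Mrpl27 (22.2), Dbp (0.872), Hbb-bt (44.5), mt-Nd4l (16.7) and Myh1 (0.0545). In HIRA KO before regeneration they were Igdcc4 (3.49) and Ndufa12 (26.0), and after it Hira (4.56), Ttc39aos1 (0.952), mt-Nd2 (7981) and Myh1 (21.4). Myh1, a myosin of fast skeletal muscle named after its values were seen, was called by DESeq2 (adjusted p 0.0286) but not by edgeR (unadjusted p 0.347).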

How the results depend on the processing

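The columns' running numbers are in no label and tie no library to a mouse. Libraries of 1 number before and after regeneration correlated in their deviations at 0.386 to 0.587 in HIRA KO and 0.0805 to 0.377 in control, over 0.1 in 7 of 8 pairs, and 7 of 8 correlated best with their own number. With a replicate block on that number, edgeR called 9 genes for the interaction (Atp5l, Dmbt1, Fndc3b, Igdcc4, Mtmr11, Ndufs6, Rpl32l, Ryr1 and mt-Tc), 2083 at an unadjusted p under 0.05, and 3525 after against before in control and 4097 in HIRA KO. For the interaction, where edgeR called 0 genes and 1568 had an unadjusted p under 0.05, DESeq2 called 67, a minimum of 1 count gave 1 (mt-Tc), and leaving out 1 library gave 0 to 7, with 7 without control before 2 and 1 (Mtmr11) without HIRA KO before 4. Scaling by total counts moved the share above 0 among genes at an unadjusted p under 0.05 from 58.2% to 74%, and FPKM gave 64.2%. After against before in control called 2350 genes, 3858 without the 4 HIRA KO libraries that stood apart and 1530 to 2634 with 1 library left out, the lowest without control after 4. In HIRA KO it called 2764, and 1678 to 2771 with 1 library left out, with 1678 without HIRA KO before 4 and 1706 without HIRA KO before 3. HIRA KO against control before regeneration called 9 genes, 375 with DESeq2, 1 with limma-voom, 3 on FPKM, 36 with a minimum of 1 count, 5 without the 4 libraries and 1 to 33 with 1 library left out (33 without HIRA KO before 4, 19 without HIRA KO before 3, 14 without control before 2, 2 without control before 3 or HIRA KO before 1, and 1 without control before 1 or HIRA KO before 2). The causes were not tested. Over 28 alternatives, 15 of the 95 named genes took the opposite sign in at least 1, and 0 of the 24 with the smallest p did. Genes with few counts, such as mt-Tq and Igdcc4, are limited by depth.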
